A study of Arabidopsis thaliana with 9 samples.

Results

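Cysteine-rich receptor-like kinases (CRKs) of Arabidopsis thaliana were followed across 3 genotypes in a table of read counts per gene. The set holds 36 loci given by locus identifier, of the 22155 loci in the table. A row was present for 34 of the 36, while CRK6 (AT4G23140) and CRK45 (AT4G11890, also named ARCK1) were not analysed here, and 25 of the 34 had enough counts to be tested. The 3 groups were PP2-A5oe, a line that overexpresses PP2-A5, a protein with a TIR and a lectin domain, pp2-a5, a mutant line of the same gene, and the wild type Col-0. Each group had 3 biological replicates. All 9 libraries came from plants of 3 weeks under the control treatment, without spider mites as far as the labels say, although the title of the series concerns defence against the mite Tetranychus urticae. The tissue is named as rosette, whereas the extraction text speaks of seedlings. The labels name 1 overexpressing and 1 mutant line, and neither the promoter of the transgene nor the insertion is described there. The PP2-A5 transcript itself was not analysed here, so the identity of the lines was not checked on it.

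CRKs sit in the plasma membrane. An outer part with paired DUF26 domains, each built around conserved cysteines, is joined by a membrane span to a kinase inside the cell, and the ligands of most family members are not known. Many CRK genes are known to be induced by pathogens, salicylic acid and reactive oxygen, and overexpression of several of them, CRK4, CRK5, CRK19 and CRK20 among them, is known to trigger cell death or stronger defence in Arabidopsis.

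The family lies mostly in tandem arrays. In the RefSeq annotation (assembly TAIR10.1) 31 of the 36 members were on chromosome 4. The longest array, from CRK5 to CRK24, held 20 members in 74.2 kb (chromosome 4, positions 12117491 to 12191704), of which 19 had a row and 15 were tested. A second array, from CRK36 to CRK40, held 5 members in 61.2 kb (chromosome 4, 2231717 to 2292965), with 3 tested. CRK28 and CRK29 formed a pair on chromosome 4 (11398857 to 11405235), and their gene models overlap on the same strand. CRK2 and CRK3 were a pair on chromosome 1 (26584729 to 26591776). The other 7 members (CRK1, CRK4, CRK25, CRK26, CRK41, CRK42 and CRK45) stood alone, 3 of them tested.

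The defining spacing of the DUF26 cysteines, C, 8 residues, C, 2 residues, C, was searched in the translated coding sequence of each member. The coding stretch of the first match is shown for 5 members that carry the results below, with the cysteine codons in capitals, so that the likeness of their sequences, which bears on how reads are assigned, can be seen.
CRK9, chr4:12135457-12135495, plus strand: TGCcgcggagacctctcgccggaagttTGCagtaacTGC
CRK7, chr4:12125983-12126021, plus strand: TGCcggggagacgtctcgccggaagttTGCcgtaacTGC
CRK10, chr4:12138456-12138494, plus strand: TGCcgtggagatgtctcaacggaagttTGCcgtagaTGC
CRK41, chr4:418737-418775, plus strand: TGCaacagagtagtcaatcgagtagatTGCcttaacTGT
CRK12, chr4:12147674-12147712, minus strand: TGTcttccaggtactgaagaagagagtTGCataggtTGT
Of the 35 members whose model was in frame, CRK17 had 4 matches, CRK23 had 3, CRK24 had 1, CRK45 had 0, and all others had 2. The third match of CRK17 had the same genome position as the first of CRK16, because the 2 gene models overlap on 1 strand, and their shared stretch is shown next.
CRK16, chr4:12162918-12162956, minus strand: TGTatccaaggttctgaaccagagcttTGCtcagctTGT
CRK9 was the shortest, with 265 residues, and CRK8 (1043 residues) and CRK17 (1001 residues) the longest. In a pairwise alignment of coding sequences, CRK8 and CRK9 were 90.6% identical over 795 aligned bases. The coding sequence of CRK8 has 3132 bases, so most of it was not compared. CRK19 and CRK20 were 90% identical, CRK39 and CRK40 87.1%, and CRK28 and CRK29 86.9%. Of all 50-base windows inside exons, 16.5% in CRK8, 16.2% in CRK22, 6.72% in CRK20 and 3.15% in CRK9 occurred more than once in the genome. Reads there could have been given to the wrong locus or dropped. Windows across splice junctions were not taken. The stretch shared by the CRK16 and CRK17 models lies at 1 genome position, so it was not counted as shared. In CRK4, CRK12, CRK14, CRK15 and CRK42 no window was shared.

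Total counts per library lay between 5408847 and 6196722, and CRK members took 0.0742% to 0.0792% of them in PP2-A5oe, 0.0906% to 0.0932% in pp2-a5 and 0.0548% to 0.057% in Col-0. The share of mitochondrial transcripts was 0.0741% to 0.0878% in 7 libraries, 0.132% in PP2-A5oe replicate 2 and 0.178% in Col-0 replicate 3, so counts were also taken without that pair. Levels are in CPM, the count relative to the scaled size of the library, with SD, and log2 fold changes have their standard error (SE), with n = 3 per group throughout. A locus was called at an adjusted p under 0.05 in the edgeR fit over all 13975 loci tested. For some genes a low value cannot be read as low expression. Protein-coding loci with 1 earlier-numbered transcript in RefSeq had a median of 291 counts over the 9 libraries, while the 5446 loci with 2 or more had a median of 1 count, the 1327 loci with 0 had a median of 0 counts, and BAK1 and GSH1, used by nearly every plant cell, were near 0. CRK5, CRK13, CRK21 and CRK40 belong to the class with 2 or more, as do CRK6 and CRK45. CRK1, CRK8, CRK12, CRK16, CRK20, CRK24 and CRK28 belong to the class with 0, so their low values, those of called members included, cannot be read as low expression either. As these are whole tissue samples, fewer cells of a type and less RNA per cell cannot be told apart.

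Both lines had more CRK transcript than Col-0, and pp2-a5 had the most. The summed level of the 34 members was 760.2, 785.9 and 794.1 CPM in the PP2-A5oe libraries, 921.4, 892.5 and 902 CPM in the pp2-a5 libraries, and 569.8, 570.1 and 553.7 CPM in the Col-0 libraries. The 3 groups did not overlap. The array from CRK5 to CRK24 supplied most of it, with 538.6 ± 10.5 CPM in PP2-A5oe, 628.2 ± 12.9 CPM in pp2-a5 and 377.9 ± 7.12 CPM in Col-0 (SD, n = 3 each), ratios to Col-0 of 1.43 and 1.66. CRK10 made up 18.7% of the summed level of all members over the 9 libraries and 27.3% of that array, and had the highest CPM of the members in both lines, whereas in Col-0 that was CRK22 (99.3 ± 5.3 CPM, with CRK10 at 81.1 ± 5.92 CPM).

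**Figure D1:**
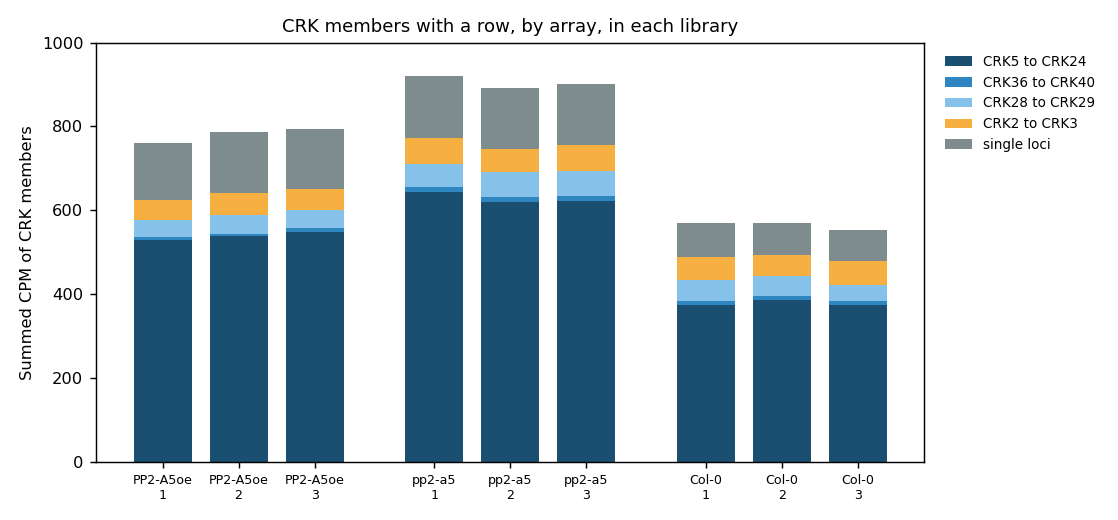
Summed CPM of the 34 CRK members with a row in each of the 9 libraries (bars, stacked by array). The bars reach 760.2 to 794.1 CPM in PP2-A5oe, 892.5 to 921.4 CPM in pp2-a5 and 553.7 to 570.1 CPM in Col-0, and the array from CRK5 to CRK24 is the largest piece of each.

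The first comparison asked which CRK genes differed in the overexpressing line. In PP2-A5oe against Col-0, 9 of 25 tested members rose (36%, where 14.5% of all loci tested rose) and 2 fell (8%, where 10.5% of all loci fell), and 14 were not called. The median log2 fold change of the members was 0.30, against -0.02 for all loci. CRK9, CRK10, CRK11, CRK12, CRK14 and CRK19 of the long array rose, as did the single loci CRK4, CRK41 and CRK42, and 5 of the 9 at least doubled their level (CRK9, CRK10, CRK12, CRK14 and CRK41). The 14.5% of all loci was taken without a fold threshold and is no measure for those 5. CRK22 and CRK37 fell. Without PP2-A5oe replicate 2 and Col-0 replicate 3, 10 members rose and 1 fell.

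The change with the greatest log2 value was that of CRK12 (AT4G23200, chromosome 4, 12145035 to 12148041). Its level was 2.32, 3.064 and 2.593 CPM in PP2-A5oe, against 0.645, 0.1674 and 0.5602 CPM in Col-0, a log2 fold change of 2.48 ± 0.45 (edgeR, adjusted p = 6.18e-05). All 3 PP2-A5oe libraries were above all 3 of Col-0. Such a gap between PP2-A5oe and Col-0, in either direction, was found in 36.8% of all loci tested. The CRK12 levels rest on 46 counts in PP2-A5oe and 8 in Col-0, and no Col-0 library reached the 1.65 CPM at which a library counted for the filter. CRK41 (AT4G00970, chromosome 4, 418327 to 421885) is far from the arrays. It had 34.31, 37.13 and 40.8 CPM in PP2-A5oe, against 9.836, 7.367 and 12.14 CPM in Col-0, a log2 fold change of 1.94 ± 0.13 (adjusted p = 6.55e-14), with no overlap between the groups.

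CRK14 (AT4G23220) had 17.24, 15.68 and 19.02 CPM in PP2-A5oe, against 4.676, 7.2 and 7.47 CPM in Col-0, and rose by 1.43 ± 0.16 on the log2 scale (adjusted p = 1.59e-08). The lowest PP2-A5oe library lay above the highest of Col-0. CRK9 (AT4G23170, in RefSeq also EP1), whose short model holds the DUF26 part, had 94.3, 97.34 and 89.73 CPM in PP2-A5oe, against 36.76, 41.19 and 40.52 CPM in Col-0, a log2 fold change of 1.25 ± 0.09 (adjusted p = 7.27e-14). The libraries of each group lay close together and far from those of the other group. CRK37 (AT4G04500), of the second array, went the other way, with 1.16, 1.082 and 0.8645 CPM in PP2-A5oe, against 2.741, 2.177 and 1.681 CPM in Col-0, a log2 fold change of -1.09 ± 0.38 (adjusted p = 0.0346). No PP2-A5oe library reached the filter level, only 18 counts stand behind the group, and the call was lost with DESeq2, without a filter, and without Col-0 replicate 1 or 2 or any 1 of the PP2-A5oe replicates.

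The other calls in PP2-A5oe were smaller. CRK10 (AT4G23180, chromosome 4, 12137995 to 12140930), known from a gain-of-function mutant with altered xylem and defence, had 155.3, 166.7 and 167 CPM in PP2-A5oe, against 85.94, 82.88 and 74.51 CPM in Col-0 (log2 fold change 1.00 ± 0.07). CRK4 averaged 51.8 ± 0.42 CPM in PP2-A5oe and 26.2 ± 4 CPM in Col-0 (0.97 ± 0.10). The groups stood apart in both genes. CRK19 rose by 0.53 ± 0.10, CRK11 by 0.46 ± 0.12 and CRK42 by 0.37 ± 0.09 on the log2 scale. CRK11 and CRK10 overlap at their ends on opposite strands, and CRK19 and CRK42 each overlap a gene on the other strand; as the strand setting of the counting is not given, reads of such partners cannot be told apart. CRK22 was at 86.5 ± 4 CPM in PP2-A5oe and 99.3 ± 5.3 CPM in Col-0, a log2 fold change of -0.20 ± 0.07 (adjusted p = 0.0435). This small fall was lost with DESeq2 and in 7 of the 9 fits that left out 1 library, all but those without Col-0 replicate 2 and without pp2-a5 replicate 1. CRK15 was not called in PP2-A5oe (0.63 ± 0.28, adjusted p = 0.102), but was called without Col-0 replicate 3 (log2 fold change 0.81, adjusted p = 0.0439).

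The second comparison asked the same of the mutant line. In pp2-a5 against Col-0, 14 of 25 tested members rose (56%, where 12.3% of all loci tested rose) and 0 fell by edgeR (where 8.47% of all loci fell). By DESeq2 0 fell as well, and at an unadjusted p under 0.05 in edgeR CRK22 alone was lower. The median log2 fold change was 0.65, against -0.01 for all loci, and 24 of the 25 members lay above 0. At least a 2-fold rise was called in 11 members, 9 of them in the long array together with CRK4 and CRK41. The 12.3% of all loci was taken without a fold threshold and is no measure for those 11. Of them, CRK12 and CRK20 had no Col-0 library at the filter level. CRK11, CRK19 and CRK29 rose by less. Without the pair of libraries with more mitochondrial RNA, 15 members rose and 0 fell. These 15 include CRK38, which was not among the 25 members tested in the main fit. With all libraries, CRK38 reached the filter level in pp2-a5 libraries only, so its added call is no measure of how the 25 held up. Both lines were set against the same 3 Col-0 libraries, so their values are given side by side and no agreement between them is drawn from that.

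CRK12 also led here, with 4.379, 3.472 and 3.439 CPM in pp2-a5, against 0.645, 0.1674 and 0.5602 CPM in Col-0, which gave a log2 difference of 2.99 ± 0.41 (adjusted p = 9.56e-07). These CRK12 levels rest on 70 counts in pp2-a5 and 8 in Col-0. No Col-0 library reached the filter level, so CRK12 passed the filter through the lines in which it was higher. CRK15 (AT4G23230, chromosome 4, 12157827 to 12160279) had 13.62, 13.72 and 9.223 CPM in pp2-a5, against 2.419, 3.181 and 4.108 CPM in Col-0, a log2 fold change of 1.92 ± 0.23 (adjusted p = 6.22e-08). The lowest pp2-a5 library was above the highest of Col-0 in both genes. In 33.7% of all loci tested pp2-a5 and Col-0 did not overlap, in either direction. CRK14 had 23.03, 23.31 and 20.48 CPM in pp2-a5, against 4.676, 7.2 and 7.47 CPM in Col-0 (log2 fold change 1.80 ± 0.16, adjusted p = 5.21e-11). CRK23 (AT4G23310), whose model carries 3 cysteine matches, had 11.68, 11.41 and 12.97 CPM in pp2-a5, against 4.031, 4.019 and 2.801 CPM in Col-0 (1.72 ± 0.19, adjusted p = 1.66e-08). Neither gene showed overlap between the groups. CRK7 (AT4G23150), which is known to take part in responses to oxygen radicals outside the cell, had 12.98, 9.424 and 11.72 CPM in pp2-a5, against 3.547, 3.349 and 3.548 CPM in Col-0 (1.70 ± 0.20, adjusted p = 4.25e-08).

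Among the other calls in pp2-a5, CRK9 rose by 1.57 ± 0.08, CRK4 by 1.55 ± 0.09, CRK41 by 1.49 ± 0.14 and CRK10 by 1.13 ± 0.07 on the log2 scale. CRK9 averaged 117 ± 10.5 CPM in pp2-a5 and 39.5 ± 2.39 CPM in Col-0. CRK10 had 181.7, 174.3 and 177.3 CPM in pp2-a5, against 85.94, 82.88 and 74.51 CPM in Col-0. Smaller rises were those of CRK11 (0.75 ± 0.11), CRK19 (0.65 ± 0.10) and CRK29 (0.37 ± 0.10, adjusted p = 0.00615), the last known, with CRK28, from studies of immune signalling. CRK20, which is known to affect growth of Pseudomonas in Arabidopsis, was called at 1.55 ± 0.49 (adjusted p = 0.0221) from 35 counts in pp2-a5 and 11 in Col-0. CRK24 was called at 1.04 ± 0.30 (adjusted p = 0.0101). These 2 calls were lost with DESeq2, that of CRK20 also without Col-0 replicate 1 or any 1 of the pp2-a5 replicates and that of CRK24 in the fit without pp2-a5 replicate 2, and no Col-0 library of CRK20 reached the filter level.

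**Figure D2:**
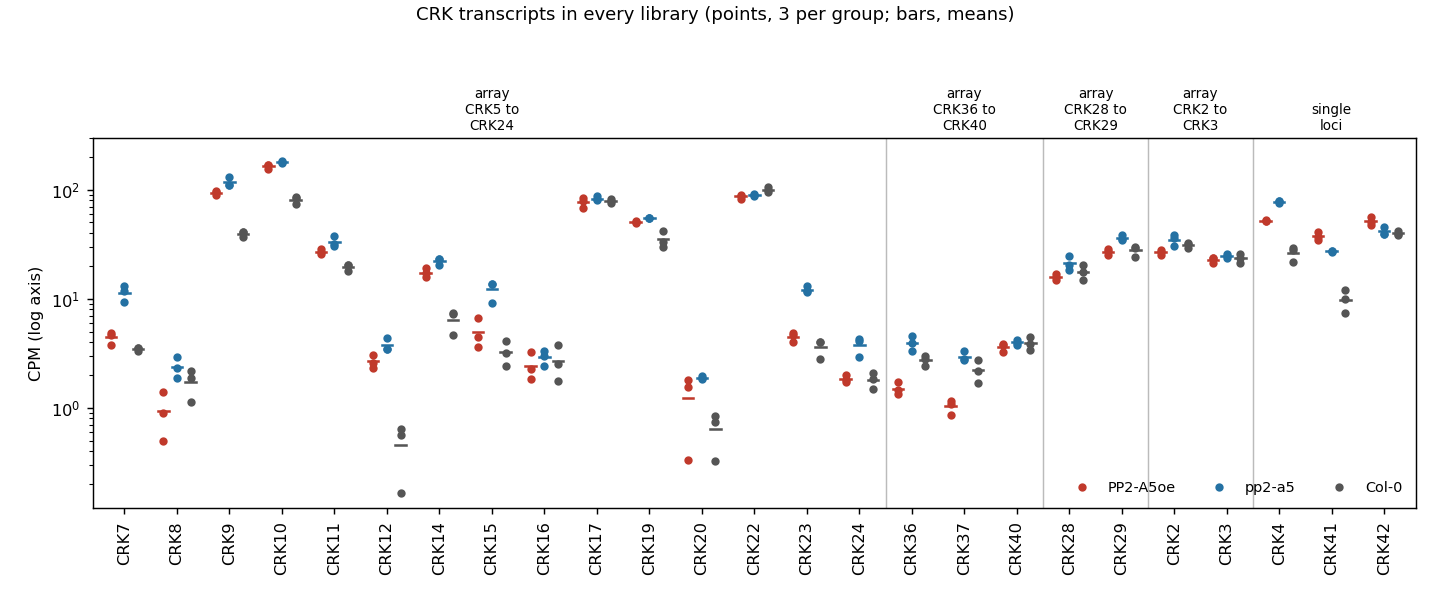
CPM (log axis) of the 25 tested CRK members in each library (points) with group means (bars), in PP2-A5oe, pp2-a5 and Col-0, ordered by array. In CRK9, CRK10, CRK12, CRK14 and CRK41 the points of both lines lie above Col-0, while in CRK7, CRK15 and CRK23 the pp2-a5 points lie above those of the other two groups.

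The third comparison set the lines against each other. Col-0 enters it through the filter and the shared estimate of the spread. In PP2-A5oe against pp2-a5, 2 of 25 members were higher (8%, where 7.21% of all loci tested were higher) and 12 were lower (48%, where 5.45% of all loci were lower). The median log2 fold change was -0.39, against -0.00 for all loci. CRK41 and CRK42 were higher in PP2-A5oe. CRK2, CRK4, CRK7, CRK8, CRK9, CRK15, CRK23, CRK24, CRK28, CRK29, CRK36 and CRK37 were lower. Of these, CRK8 and CRK37 had no PP2-A5oe library at the filter level, so they passed the filter through the groups in which they were higher. Without PP2-A5oe replicate 2 and Col-0 replicate 3, 1 member was higher (CRK42 was no longer called) and 11 were lower (CRK8 was no longer called).

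CRK37 had 1.16, 1.082 and 0.8645 CPM in PP2-A5oe, against 2.757, 2.811 and 3.283 CPM in pp2-a5, and its log2 fold change was -1.49 ± 0.36 (edgeR, adjusted p = 0.00296). Its neighbour CRK36 (AT4G04490), known to interact with the kinase ARCK1 in abscisic acid responses, had 1.326, 1.442 and 1.729 CPM in PP2-A5oe, against 4.541, 3.968 and 3.283 CPM in pp2-a5 (-1.38 ± 0.30, adjusted p = 0.00128). In both genes Col-0 lay between the lines, at a mean of 2.2 CPM for CRK37 and 2.74 CPM for CRK36. CRK23 had 3.978, 4.687 and 4.841 CPM in PP2-A5oe, against 11.68, 11.41 and 12.97 CPM in pp2-a5 (-1.42 ± 0.18, adjusted p = 4.02e-07). CRK7 had 4.806, 3.785 and 4.668 CPM in PP2-A5oe, against 12.98, 9.424 and 11.72 CPM in pp2-a5 (-1.36 ± 0.19, adjusted p = 1.59e-06). The PP2-A5oe libraries of these 2 genes stayed near the Col-0 range, and neither gene was called between PP2-A5oe and Col-0. CRK8 (AT4G23160) had 0.4972, 0.9013 and 1.383 CPM in PP2-A5oe, against 2.919, 2.315 and 1.876 CPM in pp2-a5 (-1.34 ± 0.41, adjusted p = 0.0252), from 16 and 44 counts, and this call was lost with DESeq2 and without replicate 1 or 2 of either line.

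CRK15 followed at -1.29 ± 0.21, with CRK24 at -1.02 ± 0.30 and CRK4 at -0.58 ± 0.08. CRK28 and CRK29, the pair on chromosome 4, both had -0.42 (SE 0.13 and 0.10). Their gene models overlap on the same strand, and how reads of that stretch were assigned is not known. CRK2, which is known to phosphorylate the oxidase RBOHD in the immune oxidative burst, had -0.39 ± 0.10. CRK9 had -0.32 ± 0.08. In the direction of PP2-A5oe, CRK41 was higher by 0.45 ± 0.11 (adjusted p = 0.00287) and CRK42 by 0.32 ± 0.09 (adjusted p = 0.0144) on the log2 scale. Calls for CRK2, CRK9, CRK24, CRK28 and CRK42 were each lost in 1 to 4 of the 9 fits that left out 1 library. That of CRK9 was lost without pp2-a5 replicate 1, and that of CRK2 without it or without PP2-A5oe replicate 3. Those of CRK24 and CRK28 were lost without PP2-A5oe replicate 3 or pp2-a5 replicate 2 or 3, that of CRK24 also without PP2-A5oe replicate 2 and that of CRK28 also without PP2-A5oe replicate 1. That of CRK42 was lost without PP2-A5oe replicate 2 or pp2-a5 replicate 2 or 3. With DESeq2 the calls of CRK24, CRK28 and CRK42 were lost. The other 11 members were not called between the lines. For CRK10 the 95% interval of the log2 fold change ran from -0.26 to 0.01 and for CRK12 from -1.07 to 0.06.

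**Figure D3:**
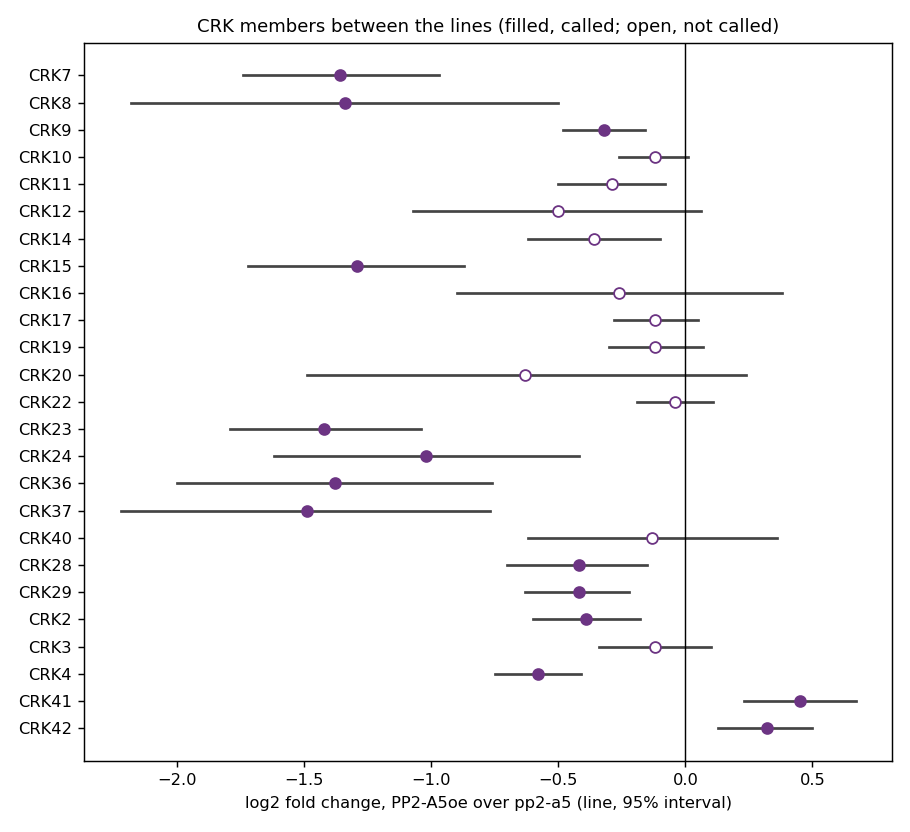
Log2 fold change of PP2-A5oe over pp2-a5 for the 25 tested CRK members (points) with 95% intervals (lines); filled points were called. CRK41 and CRK42 lie to the right of 0, and CRK7, CRK8, CRK15, CRK23, CRK24, CRK36 and CRK37 lie beyond -1 on the left.

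Read over the 3 comparisons, members fell into a few patterns. CRK10, CRK11, CRK12, CRK14 and CRK19 were higher in both lines and not called between them. Each had a log2 fold change below 0 in PP2-A5oe against pp2-a5, from -0.12 to -0.50, so not called does not mean an equal level. CRK11 (adjusted p = 0.0647) and CRK14 (adjusted p = 0.0589) were near the threshold between the lines and were called lower in PP2-A5oe when only the groups compared were fitted. CRK14 was also called without Col-0 replicate 1 or 3 or PP2-A5oe replicate 3, and CRK11 without Col-0 replicate 3 or pp2-a5 replicate 1. CRK4 and CRK9 were higher in both lines and lower in PP2-A5oe than in pp2-a5, whereas CRK41 was higher in both lines and higher in PP2-A5oe. CRK7, CRK15, CRK23, CRK24 and CRK29 were called higher in pp2-a5 alone and also differed between the lines. CRK2, CRK8, CRK28 and CRK36 were called between the lines and in neither against Col-0. CRK3, CRK16, CRK17 and CRK40 were called in no comparison. No member was called in opposite directions in the lines.

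Along the long array the changed genes were not all neighbours. CRK9, CRK10, CRK11, CRK12 and CRK14 formed a stretch in which each tested member was higher in both lines, with CRK13 between them not tested. CRK16 and CRK17 lay next to CRK15 and did not pass in either line; CRK17 was at 76.4 ± 7.74 CPM in PP2-A5oe, 82.8 ± 3.44 CPM in pp2-a5 and 78.6 ± 3.31 CPM in Col-0. The array median of the log2 fold change was 0.46 in PP2-A5oe, with 6 members higher and 1 lower, and 1.13 in pp2-a5, with 11 higher. CRK23 and CRK24, at the far end, were called in pp2-a5 and not in PP2-A5oe.

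**Figure D4:**
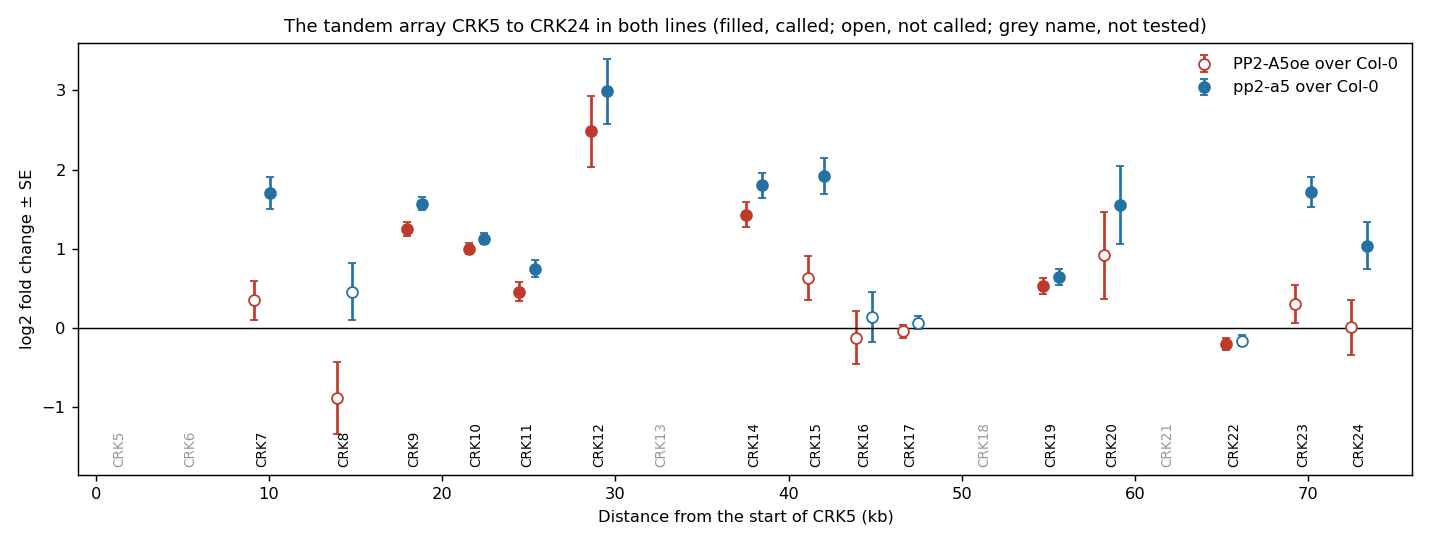
Log2 fold change over Col-0 (± SE) of the tested members of the array from CRK5 to CRK24 in PP2-A5oe and pp2-a5, by distance from the start of CRK5 in kb; filled points were called. The stretch from CRK9 to CRK14 is called in both lines, and CRK7, CRK15, CRK20, CRK23 and CRK24 in pp2-a5 alone.

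Genes that are not CRKs but lie in or beside the long array were mostly not tested. Of 3 inside the array, the transcribed pseudogene AT4G23215 (chromosome 4, 12152900 to 12153459) was tested. It had 1.33 ± 0.646 CPM in PP2-A5oe, 2.42 ± 0.519 CPM in pp2-a5 and 0.586 ± 0.314 CPM in Col-0, and was higher in pp2-a5 (log2 fold change 2.04 ± 0.46, adjusted p = 0.00117) and not called in PP2-A5oe (1.19 ± 0.54, adjusted p = 0.107). It had 10 counts in Col-0, where no library passed 0.934 CPM, so it too passed the filter through the lines in which it was higher. Among the 10 annotated genes on each side, IQD22 before the array fell in both lines, with log2 fold changes of -0.31 ± 0.09 in PP2-A5oe and -0.48 ± 0.09 in pp2-a5, and AT4G23040 and AT4G23330 were not called.

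The smaller arrays and single loci differed from each other. The array from CRK36 to CRK40 summed to 7.519 ± 0.927 CPM in PP2-A5oe, 13.01 ± 0.411 CPM in pp2-a5 and 9.533 ± 0.508 CPM in Col-0, with a median log2 fold change of -0.86 in PP2-A5oe and 0.41 in pp2-a5 over its 3 tested members. CRK40 did not pass in either line and belongs to the class of genes with several earlier transcripts. CRK28 and CRK29 together had 42.73 ± 2.56 CPM in PP2-A5oe, 57.26 ± 3.41 CPM in pp2-a5 and 45.25 ± 5.54 CPM in Col-0. CRK2 and CRK3 had 49.52 ± 1.99 CPM in PP2-A5oe, 59.65 ± 4.01 CPM in pp2-a5 and 54.68 ± 3.77 CPM in Col-0, and neither member was called against Col-0 in either line. The single loci CRK4 and CRK41 rose in both lines, although they lie outside any array.

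Levels within the family covered a wide range, and their order depended on the length used. Per kb of exon, CRK10 was highest in PP2-A5oe (64.1 ± 2.63 CPM per kb) and in pp2-a5 (69.9 ± 1.46 CPM per kb), and CRK22 in Col-0 (38.1 ± 2.04 CPM per kb). CRK9 came next in both lines, with 51.4 ± 2.1 CPM per kb in PP2-A5oe and 64.2 ± 5.77 CPM per kb in pp2-a5, against 21.7 ± 1.31 CPM per kb in Col-0. In Col-0, CRK22 was followed by CRK10 (31.9 ± 2.33 CPM per kb) and CRK17 (25.2 ± 1.06 CPM per kb), whose ranges did not overlap. Per kb of coding sequence, CRK9, whose model has a short coding part, was highest in PP2-A5oe (118 ± 4.8 CPM per kb, with CRK10 at 81.1 ± 3.33) and in pp2-a5 (147 ± 13.2 CPM per kb, with CRK10 at 88.4 ± 1.85). In Col-0 it was at 49.5 ± 2.99 CPM per kb of coding sequence, within the spread of CRK22 at 50.1 ± 2.67. Near the low end of the tested members per kb of exon, CRK8 had 0.23 ± 0.11 CPM per kb in PP2-A5oe and 0.587 ± 0.13 CPM per kb in pp2-a5, against 0.427 ± 0.133 CPM per kb in Col-0. As CRK8 belongs to the class with 0 earlier-numbered transcripts, its place in this order cannot be read as low expression.

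The 9 members with a row that were not tested had 1 to 57 counts over all libraries. CRK1 had 1 count, CRK5 had 3, CRK13 had 8, CRK18 had 9, CRK39 had 19, CRK21 had 23, CRK26 had 26, CRK25 had 36 and CRK38 had 57. CRK38 (AT4G04510) had 7, 4 and 6 counts in PP2-A5oe, 12, 10 and 10 in pp2-a5, and 2, 3 and 3 in Col-0, and when no filter was set it was called higher in pp2-a5, at a log2 fold change of 1.85 (edgeR, adjusted p = 0.00782). The others had too few counts to tell the groups apart. Of the 25 tested, CRK12, CRK20, CRK37 and CRK8 had a group with no library at the filter level, so these members passed through the groups in which they were higher.

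The 250 bases before the annotated start of each member were searched for the W-box core TTGAC, to which WRKY factors of the defence response are known to bind, and for TGACG, the core of as-1 type elements bound by TGA factors. Both strands were read, and 3 of the 18 TGACG matches overlapped a TTGAC. Promoters of 4 members are shown from the RefSeq genome (TAIR10.1), with TTGAC or its reverse GTCAA in capitals: CRK11 and CRK41 have the most matches, CRK10 supplies the most counts over the 9 libraries and CRK12 had the highest fold change.
CRK11, chr4:12143859-12144108, minus strand: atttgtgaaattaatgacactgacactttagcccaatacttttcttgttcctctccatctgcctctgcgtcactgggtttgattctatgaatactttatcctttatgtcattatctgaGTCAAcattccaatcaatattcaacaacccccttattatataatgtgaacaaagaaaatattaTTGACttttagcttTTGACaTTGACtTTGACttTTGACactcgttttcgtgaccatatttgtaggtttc
CRK41, chr4:418077-418326, plus strand: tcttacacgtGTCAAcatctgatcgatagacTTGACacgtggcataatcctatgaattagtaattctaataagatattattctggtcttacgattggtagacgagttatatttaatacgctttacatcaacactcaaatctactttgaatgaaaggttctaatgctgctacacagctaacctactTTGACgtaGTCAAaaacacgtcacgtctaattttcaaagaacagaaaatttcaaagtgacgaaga
CRK10, chr4:12137745-12137994, plus strand: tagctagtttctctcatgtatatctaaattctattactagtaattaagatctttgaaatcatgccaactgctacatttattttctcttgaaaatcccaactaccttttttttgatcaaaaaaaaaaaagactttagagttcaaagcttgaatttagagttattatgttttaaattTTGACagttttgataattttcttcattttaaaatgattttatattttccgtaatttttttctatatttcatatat
CRK12, chr4:12148042-12148291, minus strand: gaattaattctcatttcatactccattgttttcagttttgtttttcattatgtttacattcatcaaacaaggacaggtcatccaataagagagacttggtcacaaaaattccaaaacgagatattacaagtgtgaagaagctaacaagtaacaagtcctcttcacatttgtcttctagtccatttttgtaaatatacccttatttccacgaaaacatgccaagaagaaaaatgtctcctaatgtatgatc
CRK11 had 6 matches of TTGAC, 5 of them within 69 bases of the start, CRK41 had 4 together with 3 of TGACG, CRK10 had 1, and CRK12 had none of either in this window. At least 1 TTGAC was present in 25 of the 36 members (69.4%), against 44.9% of 27443 promoters of protein-coding genes, and at least 2 in 15 (41.7%), against 14.1%. TGACG occurred in 13 members (36.1%), against 18.6% of all promoters. Of the 15 members called higher in a line, 13 had a TTGAC, as did 5 of the 10 other tested members and 7 of the 11 that were not tested. At least 2 were present in 7 of the 15 called higher, 3 of the 10 other tested members and 5 of the 11 not tested. Neighbouring members arose from shared ancestors, so these promoters are not independent. The windows of CRK15, CRK16, CRK24, CRK25, CRK26, CRK28, CRK29 and CRK40 overlap another gene. Such overlaps were not excluded for the members or for all promoters. In CRK14 and CRK15 the annotated start is that of the coding sequence, so their windows may not lie before the start of the transcript. A match describes letters in this window and was not tied to binding.

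**Figure D5:**
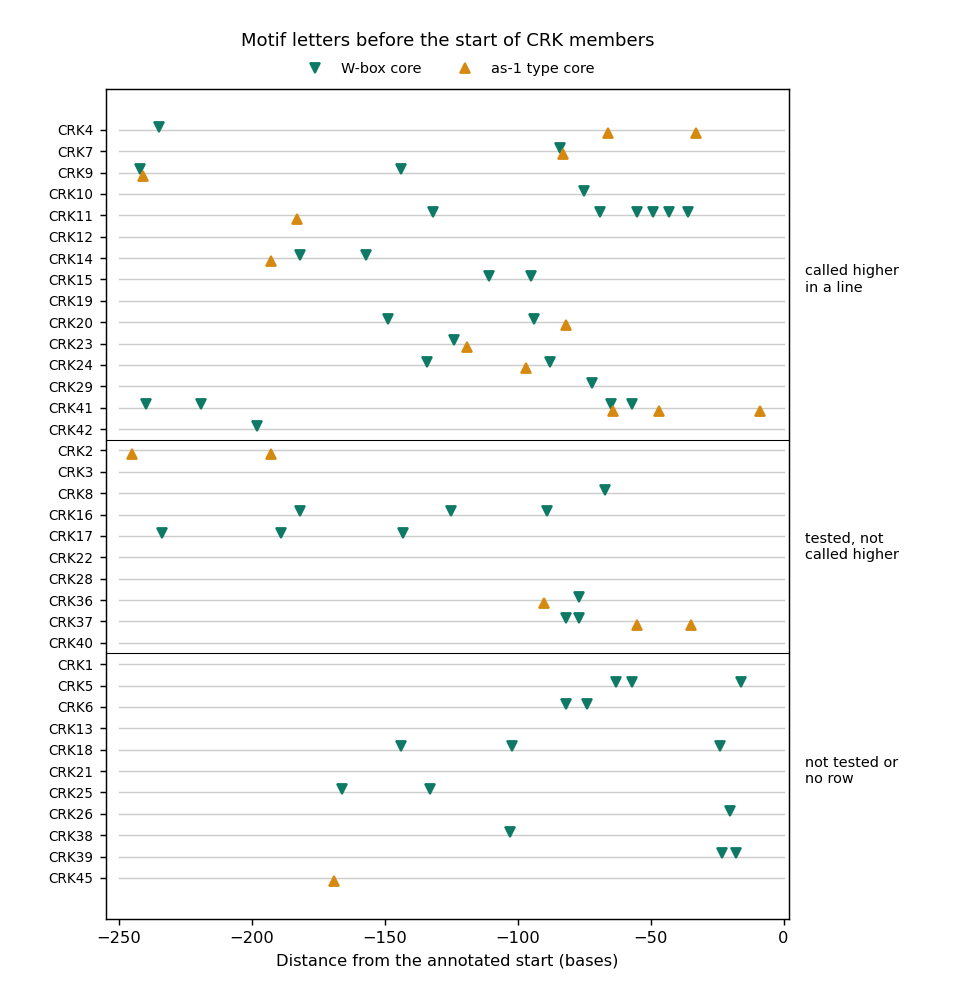
Positions of the W-box core and the as-1 type core in the 250 bases before the annotated start (distance in bases) for all 36 CRK members, grouped by their calls. CRK11 has a run of W-box cores near the start. CRK1, CRK3, CRK12, CRK13, CRK19, CRK21, CRK22, CRK28 and CRK40 have neither core.

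Relatives with the same outer domain were followed as well. Of 10 genes for plasmodesmata-located proteins (PDLPs) and secreted DUF26 proteins, 7 were tested, with 3 higher and 1 lower in PP2-A5oe, 3 higher in pp2-a5, and 2 higher and 2 lower between the lines. Over all loci tested, 14.5% were higher and 10.5% lower in PP2-A5oe, 12.3% higher in pp2-a5, and 7.21% higher and 5.45% lower between the lines, the shares to set beside each list here. The median log2 fold change of these relatives was 0.48 in PP2-A5oe and 0.54 in pp2-a5, against -0.02 and -0.01 for all loci. The DUF26 genes AT3G22060 and AT5G48540 rose, the first by 1.00 ± 0.07 in PP2-A5oe and 1.07 ± 0.07 in pp2-a5, the second by 1.81 ± 0.10 and 1.25 ± 0.10. AT5G48540 averaged 78.1 ± 4.13 CPM in PP2-A5oe, 52.9 ± 1.43 CPM in pp2-a5 and 22.3 ± 3.89 CPM in Col-0. PDLP5 (HWI1), which is known to close plasmodesmata in salicylic acid responses, rose by 0.48 ± 0.13 in PP2-A5oe and 0.84 ± 0.12 in pp2-a5. PDLP3 fell in PP2-A5oe (-0.55 ± 0.11) and was also lower there than in pp2-a5 (-0.37 ± 0.11), and PDLP2 was higher in PP2-A5oe than in pp2-a5 (0.27 ± 0.09).

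Among 7 CRK loci outside the set, 2 were tested, and CRK30 rose in pp2-a5 (1.20 ± 0.36, adjusted p = 0.0148). CRK31 had 16 counts in PP2-A5oe, 8 in pp2-a5 and 0 in Col-0, at least 5.38-fold higher in PP2-A5oe and at least 2.5-fold higher in pp2-a5 against a floor of 3 counts over the group. It was too low to test, and the floor covers counting error only.

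Receptor complexes and the oxidative burst, in which several CRKs are known to act, were represented by 19 genes, 16 of them tested. In PP2-A5oe 8 rose and 1 fell, in pp2-a5 9 rose, and between the lines 2 were higher and 4 lower in PP2-A5oe, where 14.5% and 10.5%, 12.3%, and 7.21% and 5.45% of all loci were called in those directions. Their median log2 fold change was 0.28 in PP2-A5oe, 0.44 in pp2-a5 and -0.10 between the lines. The co-receptor gene SOBIR1 rose by 1.24 ± 0.07 in PP2-A5oe and 1.04 ± 0.07 in pp2-a5, the chitin receptor gene LYK5 by 1.24 ± 0.10 and 0.65 ± 0.10, and the kinase gene MPK3 by 0.92 ± 0.07 and 0.89 ± 0.07. RBOHD, the oxidase of the immune burst, rose by 0.60 ± 0.07 and 0.54 ± 0.07, CPK6 by 0.62 ± 0.11 and 0.72 ± 0.10, EFR by 0.64 ± 0.20 and 0.79 ± 0.20, and the peroxidase gene PRX33 (PRXCA) by 0.31 ± 0.09 and 0.72 ± 0.08. BIK1 rose in PP2-A5oe (0.40 ± 0.12) and CPK5 in pp2-a5 (0.35 ± 0.07). PRX34 (PRXCB), a peroxidase that is known to make hydrogen peroxide in the wall, was called in opposite directions in the lines, with 183 ± 3.72 CPM in PP2-A5oe, 445 ± 20.2 CPM in pp2-a5 and 253 ± 32.1 CPM in Col-0 (-0.46 ± 0.07 in PP2-A5oe, 0.82 ± 0.07 in pp2-a5). Between the lines SOBIR1 (0.20 ± 0.07) and LYK5 (0.60 ± 0.09) were higher in PP2-A5oe, and FLS2 (-0.34 ± 0.10), CPK5 (-0.22 ± 0.07), PRX33 (-0.41 ± 0.08) and PRX34 (-1.28 ± 0.07) were lower.

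Markers of salicylic acid responses, which are known to accompany CRK induction, were mostly higher in pp2-a5 than in PP2-A5oe. Of 9 such genes 6 were tested, with 4 higher in PP2-A5oe, 6 higher in pp2-a5, and 5 lower in PP2-A5oe than in pp2-a5, where 14.5%, 12.3% and 5.45% of all loci were. Their median log2 fold change was 0.48 in PP2-A5oe, 1.5 in pp2-a5 and -0.87 between the lines. PR1 had 32.1 ± 1.03 CPM in PP2-A5oe, 110 ± 10.6 CPM in pp2-a5 and 27.9 ± 1.74 CPM in Col-0. It was not called in PP2-A5oe against Col-0 (0.21 ± 0.10), and neither was PR2 (BGL2, 0.02 ± 0.08), which rose by 1.12 ± 0.08 in pp2-a5. PR5 rose by 0.56 ± 0.11 in PP2-A5oe and 1.38 ± 0.10 in pp2-a5, DMR6 by 0.90 ± 0.07 and 1.81 ± 0.07, WRKY70 by 0.91 ± 0.09 and 1.63 ± 0.08, and NPR1 by 0.40 ± 0.09 and 0.60 ± 0.08.

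Markers of other organs moved in part with the lines. The leaf markers CAB3 and LHCB2.1 were abundant in all libraries (summed 4654 to 5128 CPM in PP2-A5oe, 4336 to 4615 CPM in pp2-a5, 4859 to 5379 CPM in Col-0), and CAB3 fell in both lines (-0.27 ± 0.06 and -0.29 ± 0.06), while RBCS1A and RCA were not analysed here. Of 6 root markers 3 were tested, and all 3 rose in PP2-A5oe: LRX1 by 1.57 ± 0.23, PYK10 by 0.39 ± 0.07 and PRP3 by 1.89 ± 0.17. PRP3 also rose in pp2-a5 (0.66 ± 0.20). The summed root markers were 341 to 357 CPM in PP2-A5oe, 246 to 270 CPM in pp2-a5 and 229 to 288 CPM in Col-0. The 3 flower markers in the table summed to 15.9 to 19.7 CPM in PP2-A5oe, 14.4 to 18.8 CPM in pp2-a5 and 13.8 to 15.6 CPM in Col-0 with no call, and the seed marker OLEO1 stayed at or below 0.187 CPM in every library. Their part in the CRK differences was not tested.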

How the data were processed

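Polyadenylated RNA was sequenced in 9 libraries; per the labels' protocols RNA came from RNeasy columns with DNase treatment, oligo(dT) enrichment and random hexamers. The deposited values are raw counts per gene made by the authors against TAIR10, per the submitters' processing notes; the sources used here name no aligner, counting tool or strand setting. In all, the table had 22449 rows for 22155 loci (294 loci with 2 rows, which were summed; no member had more than 1), and 21952 loci matched the TAIR10.1 annotation, the source of positions and sequences. Every row has at least 1 count over the libraries.

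Counts were fitted in R 4.3.3 with edgeR 4.0.16: filterByExpr (minimum count 10, minimum total 15; 13975 loci with 99.76% of counts), TMM scaling, and 1 robust quasi-likelihood model over all 9 libraries (6 residual degrees of freedom, biological coefficient of variation 6.89%), with Benjamini-Hochberg adjustment over all loci tested. Adjusted p-values in the text come from this fit. Arrays are runs of members starting within 50 kb of each other. Alternatives used DESeq2 1.42.0 and limma 3.58.1; Python 3.11.15, pandas 2.3.3, numpy 2.4.6, Biopython 1.88 and matplotlib 3.10.9 made the tables, sequence matches and figures. The fit was tested on simulated data.

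The members, lists and tests were chosen with earlier results of these data known. Members called in a comparison were named with their values, the 5 with the greatest absolute log2 change per comparison (and CRK10, added as the member with the most counts) with the value of every library, and called members of each list were named. CRK31 and CRK38 were named after their values were seen. Replicates are biological per the labels, which do not say how plants were grown or pooled, so p-values measure the spread between these samples. Replicate numbers do not pair the groups in the labels.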

Additional observations from a re-analysis of the deposited data

How the results depend on the processing

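Of the 3 comparisons' member counts, those of rises in PP2-A5oe (9) and pp2-a5 (14) and of falls in PP2-A5oe against pp2-a5 (12) moved by over 1.5 times only with the stricter filter of 10 CPM in 3 libraries (9 rises in pp2-a5, 6 falls between the lines) and with a 2-fold threshold (5 rises in PP2-A5oe, 7 falls between the lines), both of which leave fewer members. The 2 falls in PP2-A5oe were 0 with DESeq2, with only the groups compared and at an adjusted p under 0.01, 1 without a filter, with the stricter filter, without both libraries rich in mitochondrial RNA and with a 2-fold threshold, and 0 to 2 when 1 library was left out. The 2 rises between the lines were 1 with DESeq2, without both libraries and at the stricter p, 0 with a 2-fold threshold, and 1 to 2 when 1 library was left out. With a replicate block the falls in PP2-A5oe were 1, CRK22 and CRK28 (between the lines) being lost, and no other member's call changed under the block. Correlations between groups, with group means taken off, ran from -0.18 to 0.0618 for libraries of the same number. For different numbers they ran from -0.0886 to 0.136. They showed no pairing by number, but with 3 libraries per group they cannot exclude a weak one. Genes called in and beside the long array were 0 in PP2-A5oe with a 2-fold threshold, and 1 in pp2-a5 with it or with the stricter filter. Its median log2 change in pp2-a5 was 0.95 with the stricter filter, 1.07 without both libraries and 1.07 to 1.19 leaving out 1 library; in PP2-A5oe it was 0.39 to 0.49 leaving out 1; between the lines it was -0.21, -0.51 and -0.51 to -0.32. For CRK36 to CRK40 the median in PP2-A5oe was -0.47 with only the groups compared, -0.97 without loci with several earlier transcripts (an alternative chosen after seeing the data) and -0.97 to -0.77 leaving out 1; in pp2-a5 it was 0.26 without both libraries, 0.46 without those loci and 0.26 to 0.44 leaving out 1; between the lines it was -1.41 to -1.26. The median level of tested members in Col-0 was 4.9 CPM per kb by coding length, against 4.18 by exon. Over all settings, 771 of the called members' log2 changes kept their side of the threshold, 73 lost it and none reversed. Calls of members that a setting left untested are in neither number. This befell members under the stricter filter, where 26 calls could be compared, and CRK37 in PP2-A5oe with only the groups compared. Calls gained under some settings were those of CRK36 and CRK15 in PP2-A5oe, of CRK38 in pp2-a5, and of CRK14 and CRK11 between the lines. Except where fewer genes or samples explain it, the cause was not tested.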
